A study of Mus musculus with 6 samples.

Results

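The 10 genes described here carry fatty acids inside cells (Fabp1, Fabp2, Fabp4, Fabp5 and Fabp7), move or trap them at the plasma membrane (Cd36, Slc27a2 and Slc27a5), or release and take up lipid from circulating lipoproteins (Lpl and Vldlr). They were chosen by gene symbol. An array feature counted for a gene when the platform annotation gave it exactly 1 symbol and that symbol was the gene's. All 10 were found, with 11 features, among 20261 genes and 24343 features with a single symbol, and all 11 features passed the filter on dim features. The set was proposed with the tumour and non-tumour values of these arrays already known. The group differences of the 10 genes are therefore given as a description. Where limma called one of them in its fit over all genes, the share called over all genes stands beside it and nothing is read from it.

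The samples were 3 hepatocellular carcinomas (tumour 405, 483 and 616) and 3 samples of liver outside tumours (non-tumour 405, 483 and 623), each measured on 1 array. All came from untreated C57BL/6 mice aged 24 months that carried the hepatocyte knockout of Srsf3, the gene of a splicing factor, and no liver with intact Srsf3 was analysed here. The Cre line is not given in the sources used here, and the labels do not say whether samples of a group, or same-numbered samples of both groups, came from separate animals. Levels are log2(intensity + 16) after quantile normalization, so that differences of dim genes are understated.

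Long-chain fatty acids reach the liver bound to albumin or inside lipoproteins. Lipoprotein lipase on capillary walls frees fatty acids from triglyceride, lipoprotein receptors take up whole particles, and CD36 and the SLC27 proteins promote entry across the membrane. In the cytosol, fatty acid binding proteins carry the hydrophobic chain to mitochondria, peroxisomes, lipid droplets and the nucleus, where fatty acids are ligands of the PPAR nuclear receptors. Hepatocytes normally use Fabp1, Slc27a2 and Slc27a5, while Fabp4 is known from adipocytes, macrophages and capillary endothelium, Fabp2 from the intestine, Fabp5 from epidermis and Fabp7 from brain.

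Promoter windows from RefSeq (GRCm38.p6) were at hand for 6 of the 10 genes: Fabp1, Fabp2, Fabp7, Cd36, Slc27a2 and Vldlr. PPAR with its partner RXR binds a direct repeat of AGGTCA with 1 base between the copies, AGGTCANAGGTCA, and these stretches are shown because they hold its letters in the 250 bases before the transcription start. Capitals mark the repeat and a second single copy in Fabp1 and the single copy in the others, all read on the strand opposite to the gene, as TGACCT. Each stretch ends before the start site.
Fabp1, chr6:71199772-71199875, plus strand: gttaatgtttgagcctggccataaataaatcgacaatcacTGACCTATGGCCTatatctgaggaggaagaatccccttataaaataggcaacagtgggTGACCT
Slc27a2, chr2:126552774-126552849, plus strand: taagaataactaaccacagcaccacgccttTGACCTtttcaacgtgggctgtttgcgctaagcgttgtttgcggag
Cd36, chr5:17836079-17836146, minus strand: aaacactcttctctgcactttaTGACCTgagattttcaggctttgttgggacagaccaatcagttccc
Fabp7, chr10:57784712-57784797, plus strand: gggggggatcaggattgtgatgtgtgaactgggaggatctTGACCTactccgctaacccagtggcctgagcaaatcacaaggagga

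The repeat in Fabp1 begins 67 bases before the start and differs from the full motif at 1 base, and the second copy begins 9 bases before the start. With at most 1 mismatch on either strand, 1 of the 6 genes and 0.484% of all 32851 promoter windows hold the repeat. The single AGGTCA, which overlaps the repeat by construction, stands in 4 of the 6 genes and in 14% of all windows. A match of letters is a description of the window. Of the receptors, Ppara, the main PPAR of hepatocytes, lay at 10.17, 10.03 and 10.44 in tumour 405, 483 and 616, against 11.00, 10.24 and 10.09 in non-tumour 405, 483 and 623. Pparg, the PPAR of adipocytes, lay at 9.69, 9.58 and 9.29 in tumour, against 9.11, 9.49 and 9.69 in non-tumour. Rxra, an RXR, lay at 10.59, 11.44 and 11.30 in tumour, against 11.39, 11.70 and 11.31 in non-tumour, a difference of -0.36 ± 0.27 (limma SE). Ppard, a PPAR of many tissues, differed by 0.09. The groups overlapped for all 4 receptors.

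Facts of the arrays bear on every value below. As deposited, the median intensity of features with a gene ran from 83.6 to 151 in tumour and from 122 to 197 in non-tumour, and the median gene differed by -0.48 log2 units between the groups, against -0.05 after quantile normalization. Of 5 hepatocyte markers measured, 1 was higher and 4 lower in tumour by sign, with a median of -0.20 and summed intensities from 29522 to 38064 in tumour and from 34914 to 40204 in non-tumour. Among them Alb stood at 13.34 on 4 arrays. Tat, a liver enzyme of tyrosine breakdown, lay at 11.58, 12.77 and 12.75 in tumour, against 13.14, 13.34 and 12.16 in non-tumour. Alb and Tat shared the value of 13.34, since quantile normalization gives equal ranks an equal value. Differences among the brightest genes, and in the sums they dominate, may therefore be understated too. Non-tumour 623 stood apart from the other 5 arrays: Xist, which silences an X chromosome in female cells, stood at 5.19 on it and at 10.60 to 12.31 on the others, while Eif2s3y, a gene of the Y chromosome, stood at 8.75 on it and at 4.18 to 5.13 on the others. By these genes non-tumour 623 came from another animal than the other 5 arrays, and the differences of the 10 genes are given without it as well. Of 4 male-biased liver genes measured, 4 were higher in tumour by sign, with a median of 1.45 (2.06 without non-tumour 623). Cyp2d9 lay at 11.88, 11.68 and 11.90 in tumour, against 6.81, 8.52 and 11.77 in non-tumour 405, 483 and 623. Elovl3 lay at 8.82, 8.29 and 8.07 in tumour, against 5.51, 5.60 and 7.35 in non-tumour. Of 2 female-biased genes measured, 2 were lower by sign, or 1 without non-tumour 623. The part of sex-biased expression in the values below was not tested.

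After quantile normalization limma called 0 of 16810 genes higher and 0 lower in tumour (Benjamini-Hochberg adjusted p under 0.05, smallest value 0.917). Without adjustment, 450 genes higher in tumour and 168 lower ones had p under 0.05, together fewer than that threshold gives on average when no gene differs. None of the 10 genes was therefore among the called, where the share over all genes was 0% in either direction. By sign, 7 of the 10 were higher in tumour and 3 lower, and their median difference was 0.16 log2 units, against 43.8% of all genes higher and a median of -0.05. Fabp5, whose feature is in doubt as given below, is in this and the later counts and medians over the 10 genes. The signs moved with the scaling. With values as deposited 4 of the 10 were higher, with a median of -0.08 against -0.48 over all genes. With each array centred on its median gene 8 were higher, with a median of 0.40 against -0.0019. Fabp1, Fabp2, Fabp4 and Cd36 were higher in tumour and Fabp7 and Vldlr lower under all 3 scalings, while Fabp5, Slc27a2, Slc27a5 and Lpl changed sign under at least 1 of them.

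**Figure D1:**
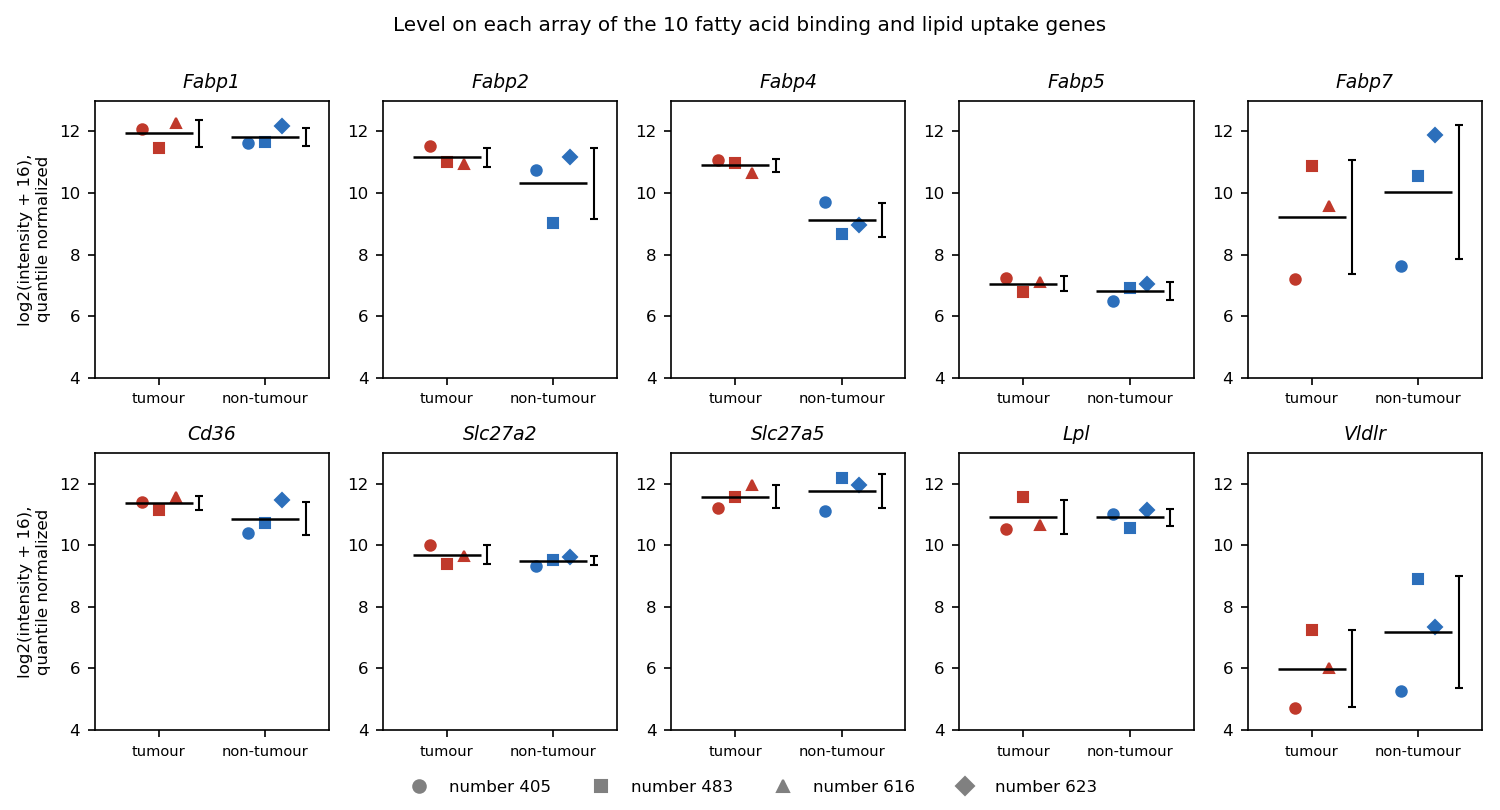
Each panel gives the level of 1 gene, log2(intensity + 16) after quantile normalization, in tumour and non-tumour. Each point is 1 array with its number as the shape, horizontal lines are group means and error bars are 1 SD (n = 3 each). The 3 tumour arrays of Fabp4 lie between 10.66 and 11.07, all above the non-tumour arrays, and Fabp7 and Vldlr spread widest within the groups.

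Among the intracellular carriers, Fabp4 was the 1 gene of the 10 whose groups did not overlap. It lay at 11.07, 10.98 and 10.66 in tumour 405, 483 and 616, against 9.72, 8.66 and 8.98 in non-tumour 405, 483 and 623. The lowest tumour array was above the highest non-tumour array by more than either group's SD. The means were 10.90 ± 0.22 in tumour and 9.12 ± 0.55 in non-tumour (SD, n = 3 each), a difference of 1.78 ± 0.33 (limma SE) or 3.44-fold. The intensities as deposited kept the groups apart too, with 1904, 2071 and 1544 in tumour against 689, 309 and 836 in non-tumour. Over all genes, 3.95% lay higher in tumour without overlap and 3.85% lower. With values as deposited Fabp4 was again the 1 gene of the 10 without overlap, where 0.137% of all genes lay higher and 11.7% lower without overlap. With single arrays left out the difference was lowest, 1.56, when non-tumour 483 was omitted and highest, 2.12, when non-tumour 405 was. It was 1.75 without non-tumour 623.

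Fabp4 lies on chromosome 3 in a row of related genes, Fabp5, Pmp2, Fabp9, Fabp4 and Fabp12 (gene order of GRCm38.p6), of which Fabp4 and Fabp5 alone gave values here. The genes whose profile over the 6 arrays was nearest to that of Fabp4 were Tcim (mean absolute difference of 0.27 log2 units after each gene's own mean was taken off), Emcn (0.29) and Lipn (0.29), among 3171 genes with at least 0.5 times the SD of Fabp4. Emcn encodes endomucin, a sialomucin of endothelium. It lay at 10.30, 9.88 and 8.85 in tumour, against 8.39, 7.54 and 8.27 in non-tumour, and its groups did not overlap. Nor did those of Tcim, with its lowest tumour array at 8.60 and its highest non-tumour array at 7.93. In Lipn these were 6.72 and 6.43. Such genes were picked for their nearness to Fabp4 on the same arrays, so nothing is read from their lack of overlap.

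Of 6 markers of capillary endothelium, 4 were higher and 2 lower in tumour by sign, and 3 did not overlap: Gpihbp1, the protein that anchors lipoprotein lipase to capillary walls (difference 0.86 ± 0.34, limma SE), Cd34, a surface sialomucin (1.49 ± 0.38), and Aqp1, a water channel (1.41 ± 0.37). In Gpihbp1 the gap was narrow, with the lowest tumour array at 9.36 and the highest non-tumour array at 9.33. Plvap, of fenestral diaphragms, differed by 0.48, Rbp7 by -0.16 and Vwf by -0.31. None of the 6 was called by limma, and over all genes 3.95% lay higher in tumour without overlap and 3.85% lower. The summed intensity of the list ran from 3743 to 5240 in tumour and from 2228 to 2751 in non-tumour. Of 7 markers of all vessels 5 were higher by sign and 1, Emcn, did not overlap, with sums from 3601 to 7228 in tumour and from 3874 to 4712 in non-tumour. Of 5 sinusoidal markers 1 was higher and 4 lower, with sums from 1515 to 5088 in tumour and from 2504 to 3897 in non-tumour. The part of these cells in the Fabp4 result was not tested, and in bulk RNA fewer or more cells of a type cannot be told apart from less or more RNA per cell.

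Of 6 adipocyte markers measured, 2 were higher and 4 lower by sign, 0 did not overlap, and the sums ran from 1567 to 3219 in tumour and from 1513 to 3190 in non-tumour. The adipokine Adipoq lay between 6.84 and 7.29 in tumour and between 6.76 and 7.43 in non-tumour, a group difference of -0.02. Adipoq was dim, and differences of dim genes are understated on this scale. The lipid droplet protein Plin1 differed by -0.09 and leptin, Lep, by -0.21. Cidec, a lipid droplet protein that fatty liver also expresses, ranged from 9.50 to 11.18 in tumour and from 7.31 to 11.10 in non-tumour, a difference of 1.25 ± 0.88 (limma SE). Macrophages also make Fabp4. All 6 Kupffer cell markers were lower in tumour by sign, with a median of -1.19 and sums from 736 to 7009 in tumour and from 2294 to 10819 in non-tumour. Without non-tumour 623 the 6 differences ran from -1.09 to -0.18, with a median of -0.71, and the non-tumour sums were 2294 and 7563. Of 4 markers of recruited macrophages 2 were higher and 2 lower, or 0 and 4 without non-tumour 623 (median -0.13). The part of adipocytes or macrophages in the Fabp4 result was not tested.

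**Figure D2:**
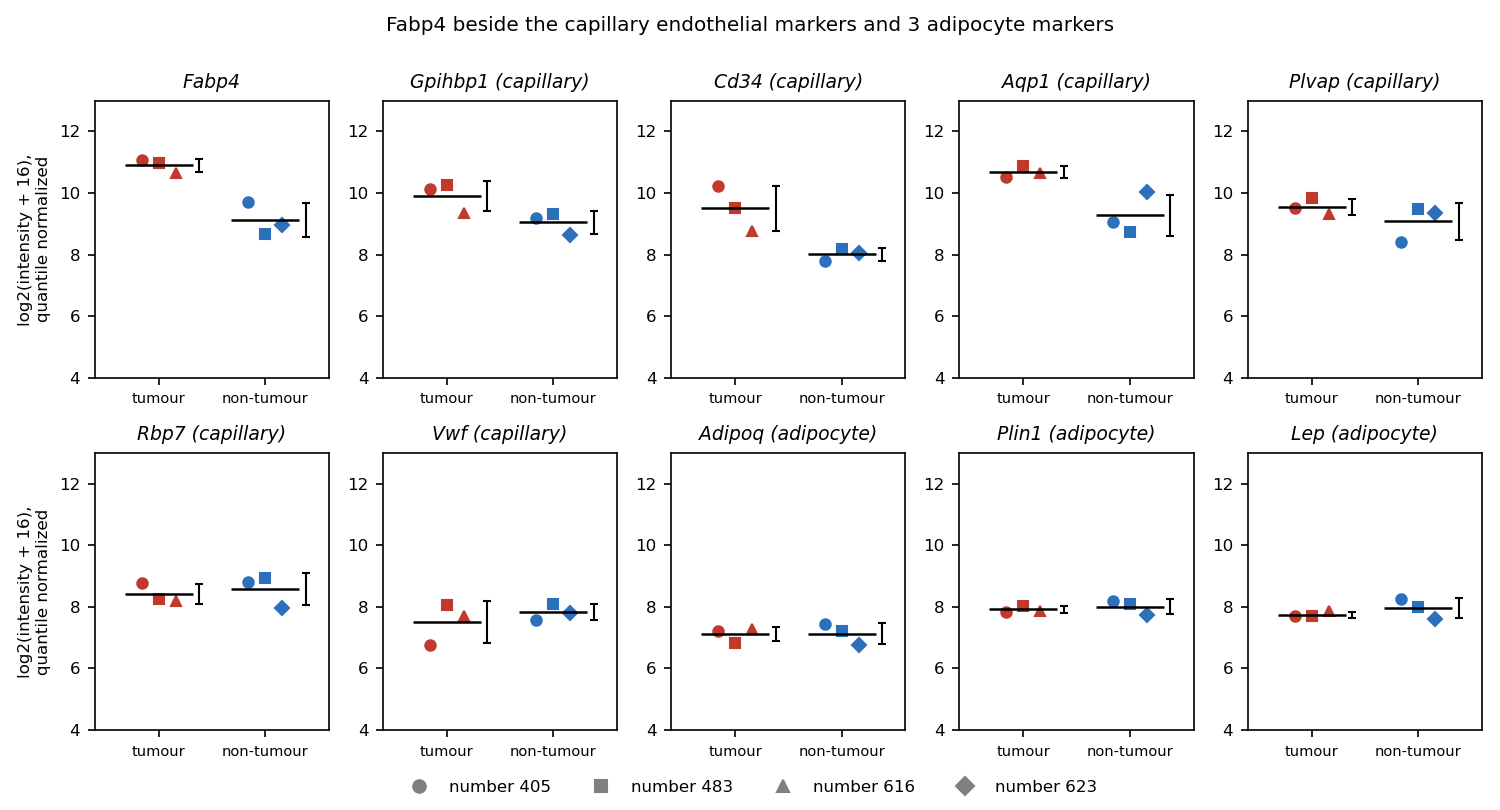
Levels on each array, log2(intensity + 16) after quantile normalization, of Fabp4, the 6 capillary endothelial markers and 3 adipocyte markers, tumour left of non-tumour. Points are arrays, lines are means and error bars are 1 SD (n = 3 each). Gpihbp1, Cd34 and Aqp1 share with Fabp4 that every tumour array is above every non-tumour array, which Plvap, Rbp7, Vwf and the 3 adipocyte markers shown do not. For Gpihbp1 the gap is narrow, from 9.33 to 9.36. Other adipocyte markers, Cidec among them (difference 1.25), are not shown.

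Fabp1, the abundant carrier of hepatocytes, was at much the same level in both groups. It lay at 12.08, 11.46 and 12.27 in tumour, against 11.64, 11.66 and 12.17 in non-tumour. The lowest and the highest value were both tumour arrays, and the difference was 0.12 ± 0.26 (limma SE). It was -0.05 without tumour 616, 0.31 without non-tumour 623 and 0.60 with arrays centred on the median gene.

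Fabp2, the intestinal carrier, lay at 11.52, 11.02 and 10.95 in tumour, against 10.77, 9.01 and 11.18 in non-tumour. The 3 tumour arrays were close together (SD 0.31), and non-tumour 483 was far below the rest (non-tumour SD 1.15). The difference of 0.84 ± 0.52 became 0.19 without non-tumour 483 and 1.32 without non-tumour 623. Without non-tumour 623 the groups of Fabp2 did not overlap, as held for 12.4% of all genes in that direction and 19.1% in the other with that array left out.

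Fabp5 was measured by a dim feature whose place is in doubt. Its value was 7.25, 6.79 and 7.12 in tumour, against 6.51, 6.93 and 7.05 in non-tumour, with overlap and a difference of 0.23 ± 0.21, or 0.32 without non-tumour 623. As deposited the difference was -0.34. Fabp5 is on chromosome 3, but the 10 nearest features by number that carry a gene were all of genes on chromosome 9. For the other 10 features of these genes, at least 8 neighbours were on the gene's own chromosome. Another feature, annotated to both Fabp5 and its pseudogene Fabp5l2, had deposited intensities of 59.8, 123 and 44.1 in tumour, against 203, 84.3 and 103 in non-tumour, again with overlap. No direction is given for Fabp5.

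Fabp7, the brain carrier, varied more between arrays of a group than between the groups. It lay at 7.22, 10.87 and 9.59 in tumour 405, 483 and 616, against 7.64, 10.55 and 11.90 in non-tumour 405, 483 and 623. Both arrays numbered 405 were the lowest. The SD was 1.85 in tumour and 2.18 in non-tumour, and its within-group SD stood at the 99.8th percentile of all genes. The difference of -0.80 ± 1.18 changed sign without non-tumour 623 (0.12) and without tumour 405 (0.20), and was -2.04 without non-tumour 405.

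At the membrane, Cd36, a scavenger receptor that binds and takes up long-chain fatty acids, was higher in the tumours than in 2 of the 3 non-tumour arrays. It lay at 11.39, 11.15 and 11.58 in tumour, against 10.40, 10.73 and 11.46 in non-tumour. The tumour arrays lay close together, and non-tumour 623 lay among them. The means were 11.37 ± 0.21 in tumour and 10.86 ± 0.54 in non-tumour (SD, n = 3 each), a difference of 0.51 ± 0.30 (limma SE). It was 0.85 without non-tumour 623, when the groups did not overlap, as held for 12.4% of all genes in that direction, and 0.28 without non-tumour 405. The profiles nearest to that of Cd36 were those of Prim1, Rexo4 and Rab11a, with mean absolute differences from 0.04 to 0.05 over the 6 arrays.

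Slc27a2 encodes FATP2, which both transports fatty acids and activates very long chains to acyl-CoA. Its bright feature lay at 12.32, 11.99 and 12.14 in tumour, against 11.94, 12.00 and 12.01 in non-tumour. These 6 values lay close together, with tumour 405 at the top. A second, dim feature ranged from 6.83 to 7.72 in tumour and from 6.71 to 7.22 in non-tumour. The groups overlapped for both features, whose differences were 0.16 and 0.25. As deposited the gene's difference was -0.11, and after quantile normalization it was 0.26 without non-tumour 623. The gene's value weighs both features alike. As deposited the bright one had intensities of 4375, 4022 and 4737 in tumour, against 3312, 3711 and 5434 in non-tumour. The dim one had 118, 104 and 91.3, against 124, 104.5 and 186. The negative sign as deposited came from the dim feature.

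Slc27a5 encodes FATP5, a protein of hepatocytes that takes up fatty acids and activates bile acids. It lay at 11.20, 11.57 and 11.94 in tumour, against 11.12, 12.19 and 11.97 in non-tumour. The lowest array of each group was number 405, and the difference was -0.19 ± 0.32. It was 0.03 without non-tumour 483, -0.50 without non-tumour 405, -0.09 without non-tumour 623 and 0.27 with arrays centred on the median gene. The nearest profiles were those of Kif1b, Aspscr1 and Arvcf, at 0.06 to 0.07.

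Of the genes that act on lipoproteins, Lpl, the lipase, lay at 10.54, 11.56 and 10.66 in tumour, against 11.00, 10.58 and 11.13 in non-tumour. Tumour 483 was the highest of the 6 and tumour 405 the lowest, and the difference was 0.02 ± 0.32. It was -0.31 without tumour 483, -0.15 without non-tumour 483, 0.21 without tumour 405 and 0.14 without non-tumour 623. Gpihbp1, its anchor, was the gene higher without overlap above, at 10.12, 10.26 and 9.36 in tumour against 9.20, 9.33 and 8.63 in non-tumour. Angptl4, a secreted inhibitor of the lipase, overlapped between the groups, with 9.82 to 10.91 in tumour and 8.92 to 10.58 in non-tumour.

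Vldlr, the receptor of very low density lipoprotein, lay at 4.73, 7.24 and 6.03 in tumour 405, 483 and 616, against 5.27, 8.89 and 7.35 in non-tumour 405, 483 and 623. Both arrays numbered 405 were the lowest, close to the value of 4 that an intensity of 0 would give, and the groups overlapped. As deposited, tumour 616 stood at an intensity of 33.6, beside 34.7 in non-tumour 405 and 6.2 in tumour 405. The means were 6.00 ± 1.26 in tumour and 7.17 ± 1.82 in non-tumour (SD, n = 3 each), a difference of -1.18 ± 0.90 (limma SE). Its within-group SD was at the 99.4th percentile of all genes. The difference was -2.19 without non-tumour 405, -0.32 without non-tumour 483 and -1.03 without non-tumour 623.

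With values as deposited limma called Vldlr lower in tumour, as the 1 of the 10 genes called on that scale, where 0.262% of all genes were called lower and 0.0832% higher. Its groups overlapped there too, and in that fit the variance came from the intensity trend alone, so the call does not measure Vldlr's own spread and nothing is read from it. The 3 profiles nearest to that of Vldlr were those of Lrat, a retinol esterifying enzyme of stellate cells, Hmox1, the inducible heme oxygenase, and Clec4f, a lectin of Kupffer cells, at 0.32, 0.32 and 0.36. Clec4f lay at 7.08, 9.60 and 8.68 in tumour, against 8.30, 10.44 and 10.10 in non-tumour. Of 6 stellate cell markers 1 was higher in tumour and 5 lower by sign, with sums from 1841 to 6553 in tumour and from 3532 to 6995 in non-tumour, beside the 6 lower Kupffer markers given above. The part of Kupffer or stellate cells in the values of Vldlr was not tested.

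**Figure D3:**
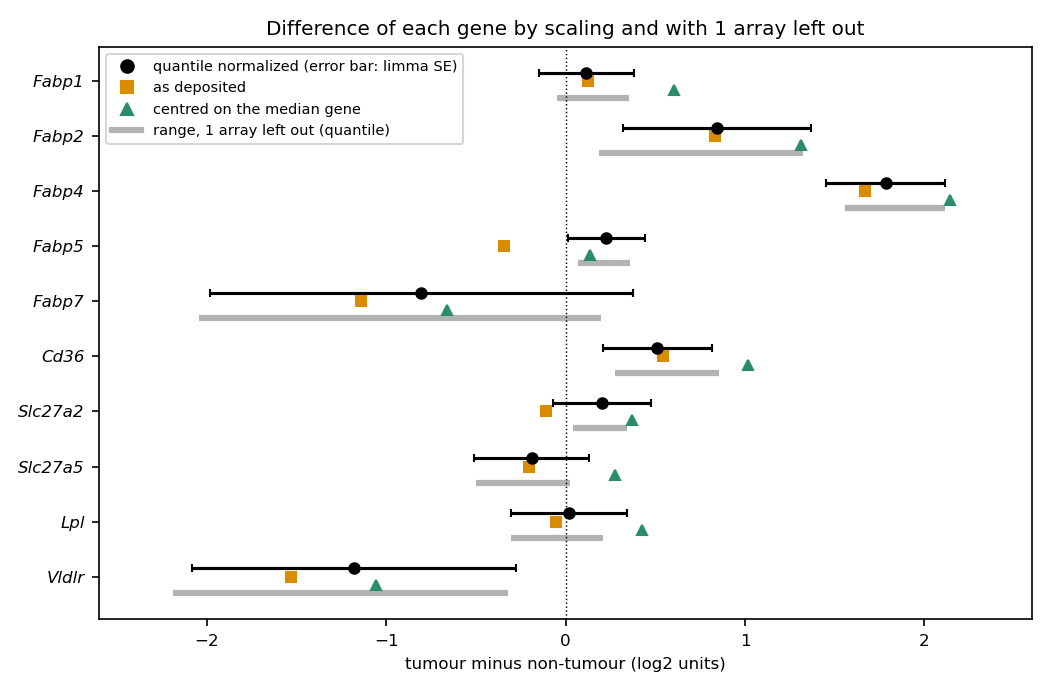
Tumour minus non-tumour for each of the 10 genes in log2 units: circles with limma SE after quantile normalization, squares as deposited, triangles with each array centred on its median gene. Grey bars span the values with 1 array left out in turn. Fabp4 stays between 1.56 and 2.15 in all of these, while the bars of Fabp1, Fabp7, Slc27a5 and Lpl cross 0.

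Other genes of lipid uptake were listed by role, and 33 of 43 gave values. limma called 0 of them in either direction after quantile normalization and 0 as deposited. By sign 15 were higher and 18 lower, with a median of -0.07. The groups did not overlap for 2 higher genes and 2 lower ones, beside 3.95% and 3.85% of all genes. Besides Gpihbp1 the higher one was Lipg, an endothelial lipase, at 8.81, 7.50 and 8.81 in tumour against 6.99, 7.36 and 7.45 in non-tumour, named for that reason after its values were seen. The lower ones were Apoc3, an apolipoprotein that slows lipolysis (-0.22 ± 0.17), likewise named afterwards, and Lrp1, a large clearance receptor of remnants, at 9.22, 10.86 and 11.05 in tumour against 11.08, 11.93 and 11.26 in non-tumour. In Lrp1 tumour 405 stood far below the other tumour arrays.

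Most transporters and receptors of the list overlapped between groups. Slc27a4, encoding FATP4, lay at 10.72, 10.85 and 11.19 in tumour, against 9.80, 10.04 and 10.83 in non-tumour, where 623 again lay among the tumours. Slc27a1, encoding FATP1, was between 8.84 and 8.93 in tumour and between 7.52 and 9.11 in non-tumour. Fabp3, the muscle carrier, differed by -0.26 and the HDL receptor Scarb1 by -0.21. Cav1, a protein of caveolae, differed by 0.06. Lipc and Acsl1 were listed but gave no value here.

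**Figure D4:**
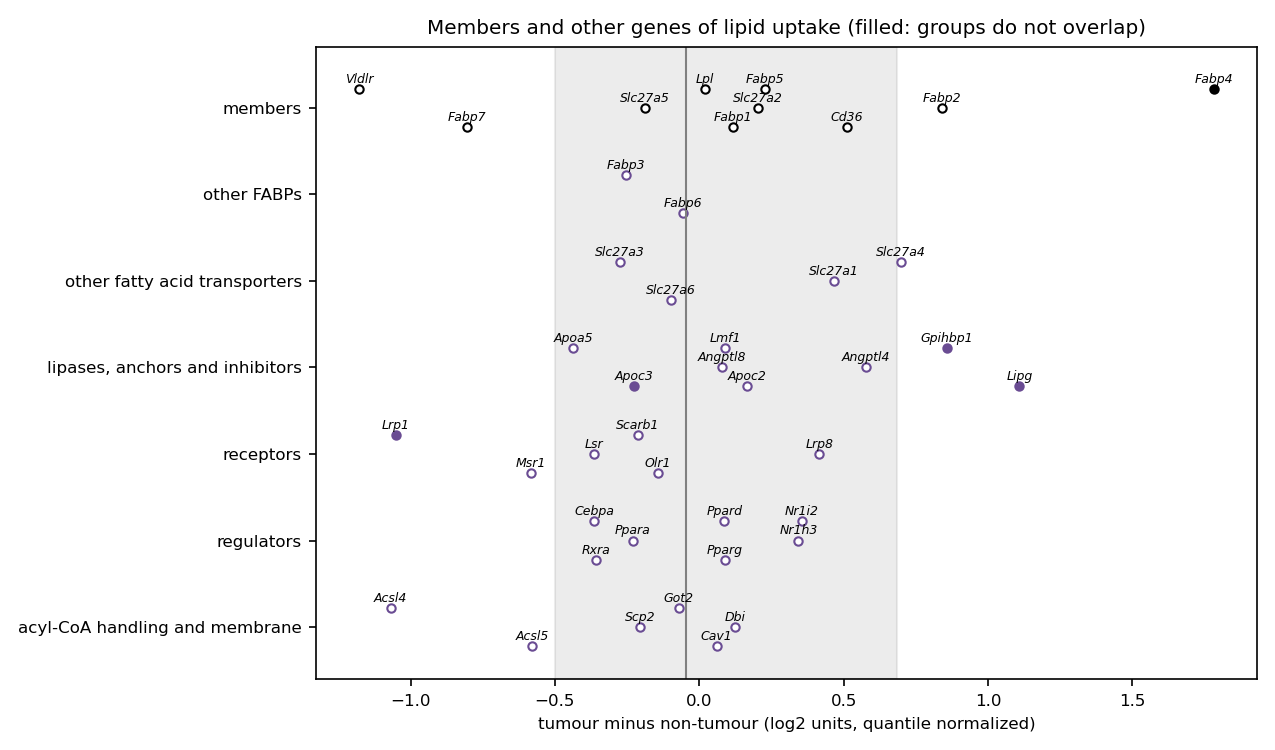
Tumour minus non-tumour in log2 units after quantile normalization for the 10 genes (top) and for 33 other genes of lipid uptake by role. Filled points have groups that do not overlap, the grey line is the median of all genes (-0.05) and the band holds their middle part, from the 5th to the 95th percentile (-0.50 to 0.68). Fabp4, at 1.78, lies furthest to the right of the genes shown.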

How the data were processed

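Per the labels, total RNA was biotin-labelled and hybridised to Affymetrix arrays. The authors summarised and normalized the deposited intensity values with PLIER, per the labels, on mm9, per the submitters' processing notes, which give no version. The values are linear intensities, and the arrays kept different medians. Of 238609 features, 24343 had 1 gene symbol, 1797 several and 212469 none. Of the first, 23782 matched the RefSeq gene table by Entrez number, and 0 symbols differed.

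Features with 1 symbol were quantile normalized and kept if their mean intensity reached the 25th percentile (62.3), leaving 18257. Values were log2(intensity + 16), with the median over features as the gene value (16810 genes). The groups were tested, tumour against non-tumour, with limma 3.58.1 under R 4.3.3 (intensity trend, no covariates, Benjamini-Hochberg adjusted p under 0.05). The labels do not tie each sample to its own animal, so p-values measure the spread between these samples, which may be technical in part. In 5 simulated draws of the same steps (up to 16819 genes), 61.4% of 4-fold and 9.8% of 2-fold changes were called, with 3 to 7 unchanged genes called in error. The simulated noise was drawn separately for each feature and array, so it lacks the correlation between features that real arrays carry. The simulated shares may therefore not hold for these arrays. The number of arrays limits the precision. The 10 genes, the lists and the choice of quantile normalization were made with earlier results of these data known. The genes named were the 10, a set of pathway genes by role, and the 3 nearest profiles of Fabp4, Cd36, Slc27a5 and Vldlr.

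Alternatives were the deposited scale, median centring, pseudocounts of 1 and 64, other filters, the brightest feature, blocks, no trend, and each array left out.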

Additional observations from a re-analysis of the deposited data

How the results depend on the processing

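With values as deposited limma called 14 genes higher and 44 lower in tumour, and 4 of the 10 genes were higher by sign. With non-tumour 623 also left out, a choice made after seeing the data, it called 96 of 16823 genes higher and 45 lower. Then 7 of the 10 were higher by sign with a median of 0.24, and 2, Fabp2 and Fabp4, were among those called higher. The variance in that fit too came from the intensity trend alone, so nothing is read from these calls. The other alternatives run called 0 genes in either direction. Leaving out 1 array at a time, 6 to 8 of the 10 genes were higher by sign, and their median difference ran from 0.07 to 0.35. Of 168 recomputed differences of the 10 genes, 7 moved by more than 1 within-group SD and 12 changed sign. Fabp2, Fabp4, Cd36 and Vldlr kept their sign in all that gave a value, with Fabp4 from 1.56 to 2.15. Fabp5 and Vldlr gave none with the filter at the 50th percentile. Some of the 168 could not move. Leaving out the intensity trend changes the SE alone. The other filters and the brightest feature leave the difference of a gene with 1 feature as it was, where they keep it. Cd36 reached 1.02 with arrays centred on the median gene. Numbers 405 and 483 occur in both groups, but the labels do not say that they mark an animal. Deviations from the group means correlated at 0.29 over genes for number 405 and at -0.01 for 483. Pairs of unlike number ran from -0.34 (tumour 616 with non-tumour 405) to 0.25 (tumour 616 with non-tumour 483), so the correlations do not settle the matter. With the number as a fixed replicate block, arrays whose number occurs in 1 group only add nothing to the difference. These differences rest on the arrays numbered 405 and 483 alone, as the mean of the same-numbered differences. For Fabp4 the latter were 1.35 for number 405 and 2.32 for 483, and for Fabp7 -0.42 and 0.32. In that fit limma called 0 genes (smallest adjusted p = 0.0532). Without adjustment, 786 higher genes and 284 lower ones had p under 0.05 in it. It put Fabp4 at 1.83, Fabp2 at 1.38, Lpl at 0.26, Fabp7 at -0.05 and Vldlr at -1.10. Dim features limit Fabp5, the second Slc27a2 feature and Vldlr in the arrays numbered 405.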
